A study of Homo sapiens with 2 samples.

Results

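The myeloid transcription factors examined here are 10 genes taken by symbol from the deposited expression table, which lists 50868 genes. They are SPI1, CEBPA, CEBPE, RUNX1, GATA2, GFI1, IRF8, MYB, MYC and KLF4, and all 10 were found in the table and passed the filter on low counts. RNA-seq was performed on MOLM-13, a human AML cell line with a monocytic character that carries the KMT2A::MLLT3 fusion. The series holds 1 library of the genotype Vector (OE-Control), the control, and 1 library with overexpression of UNC5B (OE-UNC5B), a receptor of netrin-1. Both came from MOLM-13 cells, and the growth notes give the same medium with serum and antibiotics for both. According to the methods, UNC5B was delivered by a lentivirus in which the CMV promoter drives FLAG-tagged UNC5B beside mCherry and a puromycin resistance gene, and cells were selected with puromycin. The number of clones or cultures behind each library is not given in the sources used here. The comparison asks which genes differ in level when UNC5B is overexpressed.

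UNC5B itself had 0 reads in each of the libraries, a level below the floor of 3 reads (0.219 CPM in Vector and 0.192 CPM in the other). The overexpression cannot be seen in the counts, and every direction given here rests on the labels, which is why the text speaks of the library labelled OE-UNC5B. The libraries held 13715566 counted reads (Vector) and 15637137 counted reads (labelled OE-UNC5B). The comparison covered 15384 genes with 10 or more reads in the libraries combined, called tested below, although with 1 library per group no test of the condition exists. Fold changes of the 10 factors, and of many other genes named, are therefore given with a 95% Clopper-Pearson interval from the reads, which covers counting error only and leaves out the variation between cultures. Markers of the leukemia cell were present in part. PTPRC (the leukocyte antigen CD45) had 1592 and 3102 reads, CD33 had 1775 and 2299 reads and FLT3 had 4067 and 6395 reads in Vector and the library labelled OE-UNC5B. The granule genes PRTN3 (33387 and 13614 reads, log2 fold change -1.53), LYZ and MPO were the 3 of 13 tested markers of this list that were lower by 2-fold, and 0 were higher, where 4.79% and 5.15% of all tested genes were. CD34 had 0 reads in both libraries, KIT had 2 and 1 reads, ANPEP had 2 and 0 reads, and the mature monocyte marker CD14 had 4 and 5 reads. Markers of other cell types were at or near 0 with few exceptions. Of 8 erythroid markers 7 were at 0 in both libraries, and HBB had 14 and 8 reads. Of the endothelial markers CDH5, KDR, ROBO4 and TEK were at 0, whereas PECAM1, which myeloid cells also express, had 1626 and 1471 reads (-0.38). Of the T cell markers CD2 and CD5 were at 0, whereas CD3D had 67 and 102 reads. The B cell markers summed to 4 and 14 reads, 3 and 10 of them from CD79A, and the epithelial markers to 5 and 2 reads. The 7 fibroblast markers together held 142 reads in the Vector library against 18 in the library labelled OE-UNC5B, and their part in the results below was not tested. Of the 3 that were tested, all 3 had values lower by at least 2-fold, led by COL3A1 with 108 and 6 reads, and the counting interval of COL1A2 (8 and 2 reads) took in no change. The fibroblast markers DCN and FBLN1 were at 0 in both libraries.

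These factors are the core of the network that turns a blood stem or progenitor cell into a granulocyte or a monocyte. RUNX1, GATA2 and MYB act in stem and progenitor cells, SPI1 (PU.1) and CEBPA open the myeloid programme, and CEBPE and GFI1 carry granulocytes through their later stages. IRF8 and KLF4 direct cells to the monocyte and dendritic fates, and MYC drives growth and division. In AML with a KMT2A fusion the leukemic cells are known to depend on MYB, MYC and RUNX1 while maturation is held back.

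Most of these factors had similar values in both libraries, and the pair that differed by more than 1.5-fold was lower in the library labelled OE-UNC5B. CEBPE, the factor of late granulocytes, was 6.72-fold lower. KLF4, the monocytic factor, was 1.78-fold lower. GATA2 and IRF8 were 1.45-fold and 1.43-fold lower, and SPI1, CEBPA, GFI1, MYB, RUNX1 and MYC differed by less than 1.2-fold. Of the 10 factors, 0 were higher and 1 was lower by at least 2-fold, where 5.15% of all tested genes were higher and 4.79% lower by that margin. At 1.5-fold, 0 were higher and 2 were lower, against 12.9% and 12.5% of all tested genes. The shares of lower genes, 1 of 10 and 2 of 10, are too close to these backgrounds to set the factors apart. The RNA came from bulk cells, in which fewer cells that make a factor and less RNA per cell cannot be told apart. The median log2 fold change was -0.20 over the 10 factors and -0.007 over all tested genes. The counting interval lay below no change for 7 of the 10 factors and above it for 0, compared with 26.3% and 25.1% of all tested genes. This last count depends on the scaling, and with library totals in place of TMM factors the intervals of 2 factors lay above no change. After a trend of fold change on GC content and length was subtracted, SPI1 and CEBPA, both among the 7, stood at 0.01 and 0.02.

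Read depth sets the counting error of each value, while the variation between cultures was not measured at any depth. For 7 of the factors (CEBPA, MYB, IRF8, SPI1, RUNX1, GFI1 and GATA2) the libraries together held at least 1000 reads. Among these 7, 0 passed 1.5-fold in either direction, and the counting interval lay below no change for 5 and above it for 0. Over the 5932 genes counted as deeply, 7.59% were higher and 6.57% were lower by 1.5-fold, and 1.90% were higher and 1.20% lower by 2-fold. Their counting intervals lay below no change for 38.0% and above it for 36.8%, so the share over all tested genes understates what such depth gives. In the order of fold changes, the counting intervals separated CEBPE from KLF4, IRF8 from SPI1, and GFI1 from MYB. KLF4, GATA2 and IRF8 had overlapping neighbouring intervals, as did SPI1, CEBPA and GFI1, and as did MYB, RUNX1 and MYC. These groups hold for counting error and TMM scaling only. After the trend on GC content and length was subtracted, SPI1 (0.01) and CEBPA (0.02) stood above MYB (-0.03) and RUNX1 (-0.09), and GFI1 was at -0.17.

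**Figure D1:**
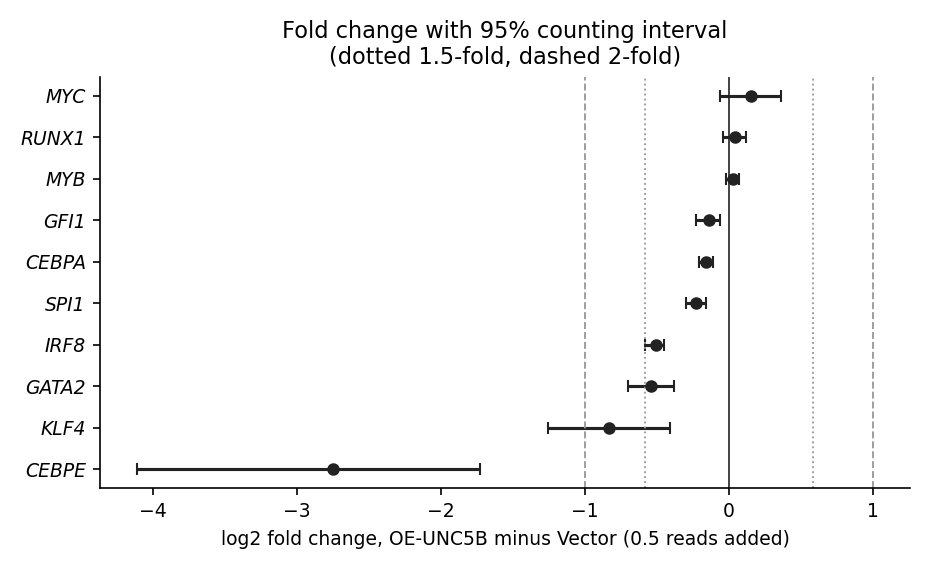
Log2 fold change of each transcription factor in the library labelled OE-UNC5B against Vector (x axis, 0.5 reads added to each count), with 95% Clopper-Pearson intervals from the reads as bars, dotted lines at 1.5-fold and dashed lines at 2-fold. CEBPE stands at -2.75 with a wide interval, KLF4 at -0.83, and MYB, RUNX1 and MYC lie on or just above 0.

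**Figure D2:**
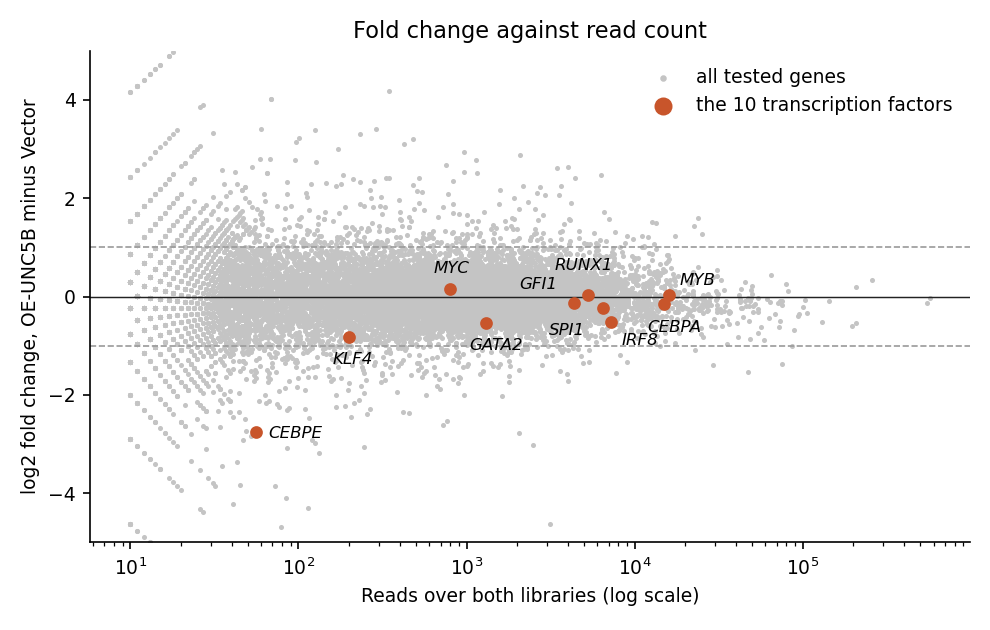
Log2 fold change of the 15384 tested genes (grey) against their reads over both libraries (log scale), with the 10 transcription factors in orange and dashed lines at 2-fold (21 genes lie beyond the plotted range). Folds scatter more widely at low counts, where CEBPE lies with 56 reads, and the 7 factors with at least 1000 reads sit between -0.54 and 0.04.

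The levels of the factors spanned more than 2 orders of magnitude. Levels were compared per length with the deposited FPKM values (reads scaled by gene length and by the reads counted per library), with exact Poisson intervals of the reads. CEBPA was the most abundant, at 200 FPKM in Vector (95% interval 196 to 205) and 185 in the library labelled OE-UNC5B (181 to 190), above 99.2% of the genes with an FPKM over 0 in Vector. SPI1 followed with 60.4 and 53.1 FPKM and MYB with 37.9 and 39.9 FPKM. IRF8 had 33.3 FPKM in Vector (32.3 to 34.4), not separable by counting error from GFI1 at 31.9 (30.5 to 33.3). Per length of merged exons the Vector levels lay further apart, at 36.7 for IRF8 and 27.1 for GFI1. In the library labelled OE-UNC5B, IRF8 stood at 24.1 FPKM (23.3 to 24.9), below GFI1 at 29.8 (28.6 to 31.1), an order that turned when merged exons were used as the length. RUNX1 had 9.03 and 9.61 FPKM and GATA2 7.57 and 5.39 FPKM. MYC stood much lower, with 2.81 FPKM in Vector (2.52 to 3.12) and 3.22 in the library labelled OE-UNC5B (2.93 to 3.53). CEBPE had 2.25 FPKM in Vector (1.66 to 2.99) and 0.329 in the library labelled OE-UNC5B (0.142 to 0.649), the lowest of the 10. Its Vector level was close to that of MYC by FPKM but not per length of merged exons (1.98 against 4.12). KLF4 had 0.988 and 0.573 FPKM.

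The length by which the authors divided to obtain FPKM can be computed back from the counts, and it was not the length of the merged exons. For MYC it was 8963 nt and for KLF4 8933 nt, longer than the loci of these genes in the table (6001 and 5631 nt). For MYB it was 2.54 times and for SPI1 1.90 times the merged exons of GENCODE 44, whereas for CEBPA it was 1.01 times. Over the 15198 tested genes with an annotation entry, the median was 1.39 times the merged exons, and 8.96% had a length longer than their locus. FPKM values of KLF4, MYB, SPI1, MYC and GATA2 (1.41 times) were therefore low beside that of CEBPA. Divided by merged exons, the Vector levels (RPKM) were 203 for CEBPA, 115 for SPI1, 96.3 for MYB, 36.7 for IRF8, 27.1 for GFI1, 11.1 for RUNX1, 10.7 for GATA2, 4.12 for MYC, 2.41 for KLF4 and 1.98 for CEBPE. The order in Vector was the same as by FPKM except that KLF4 and CEBPE changed places, and in the library labelled OE-UNC5B MYB (102) stood just above SPI1 (101) and IRF8 (26.6) above GFI1 (25.4), where FPKM gave the opposite order for both pairs. The length is the same for both libraries and leaves the fold changes as they were.

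**Figure D3:**
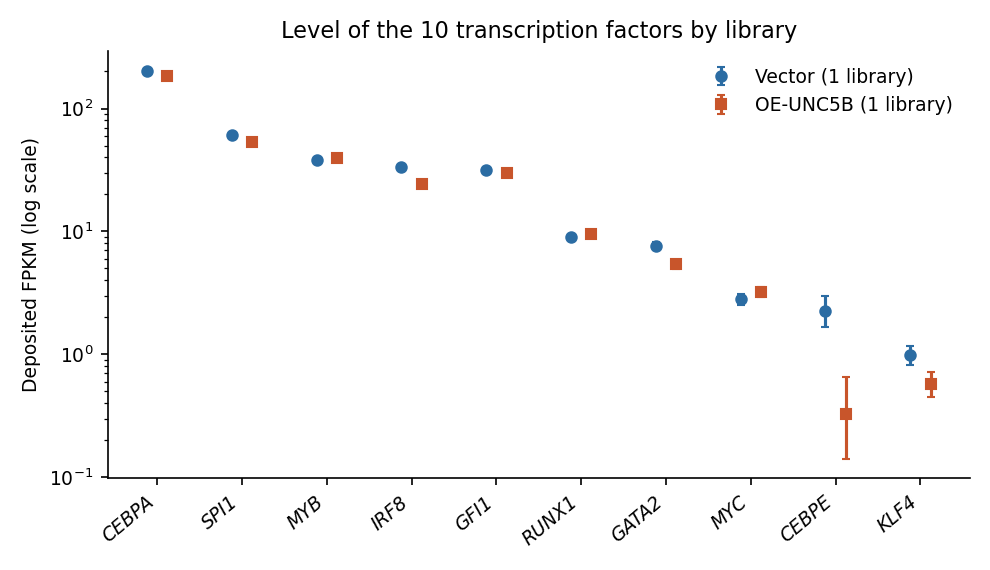
Deposited FPKM of each transcription factor (log scale) in Vector (blue circles) and in the library labelled OE-UNC5B (orange squares), 1 library each, with exact 95% Poisson intervals of the reads as bars. CEBPA is highest at 200 and 185 FPKM, and CEBPE shows the widest gap, 2.25 against 0.329 FPKM.

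The C/EBP factors bind DNA as dimers through a leucine zipper. CEBPA, whose loss blocks granulocyte formation, (GRCh38 chromosome 19, 33299934 to 33302564, minus strand) has 1 exon of 2601 nt. It had 7227 reads in the Vector library against 7626 in the library labelled OE-UNC5B, that is, a log2 fold change of -0.16 with a counting interval of -0.21 to -0.11. CEBPE (ENSG00000092067, chromosome 14, 23117304 to 23119616, minus strand, 2 exons in the main transcript) had 48 reads in Vector (exact Poisson interval 35.4 to 63.6) against 8 in the library labelled OE-UNC5B (3.45 to 15.8). The read intervals did not overlap. The log2 fold change was -2.75 (-4.11 to -1.73), so that counting error allowed a decrease between 3.32-fold and 17.3-fold, and 85 of the 15384 tested genes had a lower value. With FPKM values and 1 added it was -1.29. Of the genes beside CEBPE, C14orf119, on the opposite strand, had 699 and 585 reads (-0.49), and SLC7A8, an amino acid transporter gene 5679 bp from CEBPE on the same strand, had 5 reads in the Vector library against 31 in the library labelled OE-UNC5B.

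Of the other C/EBP genes, CEBPA and CEBPD were on the lower side, as CEBPE was, and CEBPB and CEBPG on the higher side. CEBPB, a stress and inflammation responsive factor of monocytes, had 187 and 557 reads, 2.52-fold higher in the library labelled OE-UNC5B (log2 fold change 1.34, interval 1.10 to 1.58). CEBPG, a partner of ATF4 in the amino acid response, had 1977 and 4199 reads (0.85, interval 0.77 to 0.93), and ATF4 itself had 4993 and 10509 reads (0.84, interval 0.79 to 0.89). CEBPD had 1195 and 1077 reads (-0.39, interval -0.51 to -0.27). Per length of merged exons, the family summed to 317 RPKM in the Vector library against 328 RPKM in the library labelled OE-UNC5B. CEBPA made up 63.9% of that sum in the Vector library against 57.1% in the library labelled OE-UNC5B, CEBPG 11.2% and 20.2%, CEBPB 2.34% and 5.90%, and CEBPE 0.626% and 0.0883%. TRIB1, whose product is known to send CEBPA protein to degradation, had 990 and 764 reads (-0.61, interval -0.75 to -0.47).

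The 250 bases before a RefSeq start are shown for 4 of the factors, because they let the C/EBP genes be set beside KLF4, the other gene past 1.5-fold, and GFI1, the only factor of the 8 searched with the letters of a C/EBP motif there. The RefSeq starts used lie inside the loci given for these genes, which reach further upstream, so the windows of CEBPE, KLF4 and GFI1 fall wholly within the printed loci and that of CEBPA in part. Sequences are from RefSeq (GRCh38.p14), are written 5′ to 3′ on the strand of the gene, and have in capitals every match to 9 motifs searched on both strands. The windows are chr19:33302535-33302784 for CEBPA, chr14:23119256-23119505 for CEBPE, chr9:107489770-107490019 for KLF4 and chr1:92486100-92486349 for the second of 3 starts of GFI1, all on the minus strand.
CEBPA: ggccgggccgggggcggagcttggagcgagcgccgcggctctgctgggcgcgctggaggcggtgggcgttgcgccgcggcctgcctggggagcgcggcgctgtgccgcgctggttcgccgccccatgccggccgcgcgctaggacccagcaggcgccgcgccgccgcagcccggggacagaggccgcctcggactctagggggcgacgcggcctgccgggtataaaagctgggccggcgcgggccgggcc
CEBPE: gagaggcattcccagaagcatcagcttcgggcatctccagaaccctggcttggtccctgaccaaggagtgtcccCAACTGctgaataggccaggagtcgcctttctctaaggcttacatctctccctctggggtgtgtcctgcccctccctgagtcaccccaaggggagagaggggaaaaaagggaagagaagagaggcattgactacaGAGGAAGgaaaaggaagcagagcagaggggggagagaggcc
KLF4: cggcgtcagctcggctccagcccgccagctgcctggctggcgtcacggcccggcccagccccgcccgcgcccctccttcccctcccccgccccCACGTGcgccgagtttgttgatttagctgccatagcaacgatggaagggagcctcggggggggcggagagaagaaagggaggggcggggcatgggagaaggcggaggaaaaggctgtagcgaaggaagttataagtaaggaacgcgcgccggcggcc
GFI1: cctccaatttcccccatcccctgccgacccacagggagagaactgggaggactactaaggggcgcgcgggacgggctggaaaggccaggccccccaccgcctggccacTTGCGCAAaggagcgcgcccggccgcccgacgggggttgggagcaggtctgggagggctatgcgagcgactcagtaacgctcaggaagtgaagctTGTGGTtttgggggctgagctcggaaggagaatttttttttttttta

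The motifs were GAGGAAG for SPI1, TTGCNNAA for C/EBP, TGTGGT for RUNX, AGATAA for GATA factors, AAATCAC for GFI1, CAACNG for MYB, CACGTG for MYC, GGGTGNGG for KLF and AAANNGAAA for IRF factors. Windows were found for 8 of the 10 factors, and SPI1 and MYC have no entry. The CEBPA window, 81.2% GC, held none of these letters. The CEBPE window, 57.2% GC, held the SPI1 letters starting 41 bases before the RefSeq start and the MYB letters starting 176 bases before it. The KLF4 window held the MYC letters, and the GFI1 window held TTGCGCAA, which reads the same on both strands, and the RUNX letters. Of the 12 windows of these 8 factors, 6 held at least 1 match. In the same 250 bases of all 35116 windows, the SPI1 letters occurred in 11.2%, the C/EBP letters in 9.05%, the RUNX letters in 11.0%, the MYB letters in 27.0% and the MYC letters in 6.34%. These matches describe the letters alone, and binding was not measured.

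SPI1, the ETS factor that sets the myeloid programme by its dose, had 3219 reads in the Vector library against 3228 in the library labelled OE-UNC5B. The gene (chromosome 11, 47354860 to 47378576, minus strand) thus had a log2 fold change of -0.23 (interval -0.30 to -0.16). The transcripts of SPI1 and CEBPA have the highest GC content of the 10 factors (65.2% and 65.9%, against a median of 47.9% over tested genes). The GC and length correction given above took both to about 0. Of its relatives, SPIB had 51 and 76 reads and SPIC 0 in both libraries, so SPI1 made up 99.3% and 98.9% of the summed level per length. Of 22 genes listed as SPI1 targets, 21 were tested, and their median log2 fold change was 0.07. By 2-fold, 0 were higher and 0 lower, where 5.15% and 4.79% of all tested genes were. CYBB, a subunit of the phagocyte oxidase, had 450 and 779 reads (0.55, interval 0.39 to 0.73), and the G-CSF receptor gene CSF3R had 2241 and 2563 reads (-0.04).

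GFI1, a zinc finger repressor that holds granulocyte precursors on their path (chromosome 1, 92474762 to 92486876, minus strand), had 2100 and 2239 reads (log2 fold change -0.14, interval -0.23 to -0.06), while its paralog GFI1B of red cells and platelets had 0 reads in both libraries. Of 9 genes listed as repressed by GFI1, 7 were tested, with a median of 0.02. EGR2 was the 1 gene of these past 2-fold, with 62 and 15 reads (-2.25, interval -3.20 to -1.45). Of all tested genes, 4.79% were lower and 5.15% higher by 2-fold. MEIS1 had 247 and 542 reads (0.90). IRF8, which favours monocytes and dendritic cells over granulocytes, had 3950 reads in the Vector library against 3259 in the library labelled OE-UNC5B. For this gene (chromosome 16, 85898803 to 85922609, plus strand) the log2 fold change of -0.51 had a narrow interval, -0.58 to -0.45, and ranged from -0.57 to -0.45 over the alternatives. Among the IRF genes IRF8 was the most abundant per length of merged exons, with 53.0% of the family sum in the Vector library against 43.2% in the library labelled OE-UNC5B. IRF7 had 136 and 240 reads (0.58) and IRF4, the nearest relative, 1 and 0 reads.

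KLF4, a zinc finger factor that promotes monocyte maturation (ENSG00000136826, chromosome 9, 107484852 to 107490482, minus strand), had 121 reads in the Vector library against 80 in the library labelled OE-UNC5B. The log2 fold change was -0.83 (interval -1.26 to -0.41). Its closest relatives differed among themselves. KLF2 had 85 and 53 reads (-0.91, interval -1.44 to -0.41) and KLF5 had 55 and 32 reads (-1.01, interval -1.69 to -0.36), but KLF6 had 387 and 395 reads (-0.21). KLF9, KLF11 and KLF7 had higher values of 0.68, 0.66 and 0.55. KLF5 was past 2-fold only narrowly, and not when library totals, size factors of DESeq2 or 2 added reads were used. KLF4 was 3.30% of the summed KLF level per length in the Vector library against 1.65% in the library labelled OE-UNC5B, where KLF16 and KLF13 held the largest shares. By deposited FPKM it was 1.89% and 0.921%.

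The immediate early genes, a list of 17 rapidly induced genes of which KLF2, KLF6 and KLF10 are also KLF factors, lay mostly on the same side as KLF4. All 17 were tested, 0 were higher and 4 were lower by 2-fold, where 4.79% of all tested genes were lower. With FPKM values, where FOSB and EGR2 are under the minimum of 1 in both libraries and were not compared, 2 (0.1 added) or 1 (1 added) were past 2-fold. Of the 17, 14 had a lower value, and the median was -0.58 beside -0.007 for all tested genes. IER2 had 1750 and 302 reads (-2.77), EGR3 168 and 36 reads (-2.44), FOSB 69 and 16 reads (-2.31) and EGR2 62 and 15 reads. FOS had 2692 and 1781 reads (-0.83, interval -0.92 to -0.75), the same value as KLF4. EGR1, a zinc finger factor that favours macrophage fate, had 1430 and 1230 reads (-0.45).

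RUNX1, a common target of mutation in AML, lies on chromosome 21 from 34787801 to 36004667 and had 2376 and 2884 reads (log2 fold change 0.04, interval -0.04 to 0.12). Its paralog RUNX2 had 185 and 385 reads, 1.76-fold higher (0.82, interval 0.56 to 1.08), and RUNX3 had 393 and 491 reads (0.08). CBFB, the shared subunit that lets all RUNX proteins bind DNA, had 1362 and 1432 reads (-0.16). RUNX1 made up 59.8% of the summed RUNX level per length in the Vector library against 55.8% in the library labelled OE-UNC5B. CBFA2T3, a corepressor of the ETO family, had 284 and 563 reads (0.75, interval 0.54 to 0.96), whereas RUNX1T1 had 0 reads in both. Of 12 genes listed as RUNX1 targets 6 were tested, with a median of -0.52, 0 higher and 1 lower by 2-fold (5.15% and 4.79% of all tested genes). The lower gene was MPO (-1.35), which, like ELANE (-0.67), is also on the list for CEBPA and CEBPE. NFE2 (-0.42) and MYL9 (8 and 6 reads) had lower values too, and CDKN1A and CSF1R had higher ones (0.05 and 0.17).

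GATA2, a factor of stem cells, mast cells and basophils, lies on chromosome 3 from 128479427 to 128493185 on the minus strand. It had 718 reads in the Vector library against 583 in the library labelled OE-UNC5B (log2 fold change -0.54, interval -0.70 to -0.38). GATA2-AS1, which overlaps it on the opposite strand, had 229 and 295 reads (0.13). Whether the counting used strand is not given in the sources used here, so the split of reads between these genes is uncertain. No other GATA gene had a read, and GATA2 thus made up 100% of the family level in both libraries. TAL1, an early partner of GATA factors, had 0 reads in both, LYL1 had 936 and 1266 reads (0.20), and LMO2, the bridging protein of the same complex, had 929 and 3218 reads, 2.94-fold higher (1.55, interval 1.45 to 1.66). Of 12 genes of GATA2 and of mast cells and basophils only 3 were tested. The tryptase genes TPSB2 and TPSAB1 had 23 and 5 reads and 11 and 4 reads, and they are near-identical copies whose reads cannot be told apart with certainty.

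MYB, on which KMT2A-fusion leukemia cells are known to depend, had 7263 reads in the Vector library against 8725 in the library labelled OE-UNC5B. The gene (chromosome 6, 135181315 to 135219173, plus strand) had a log2 fold change of 0.03 (interval -0.02 to 0.07), and it lay between -0.03 and 0.08 over the alternatives. Its paralog MYBL2, which acts on cell cycle genes, had 4732 and 3674 reads (-0.60, interval -0.66 to -0.54). The balance of these paralogs differed between the libraries, with MYB at 43.4% and MYBL2 at 56.0% of the summed level per length in Vector, and MYB at 54.3% and MYBL2 at 45.3% in the library labelled OE-UNC5B. By deposited FPKM, which understates MYB, MYB was at 27.3% and 36.8%. Of 10 genes listed as MYB targets 8 were tested, with a median of 0.27. Higher or lower by 2-fold were 0 and 0 of them, compared with 5.15% and 4.79% of all tested genes. BCL2, which blocks apoptosis, had 4274 and 8394 reads (0.74), and CDK6 had 4273 and 7760 reads (0.62). CCNE1 and CCNB1, cyclins of S phase entry and mitosis, had values of -0.83 and -0.56.

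MYC had 345 reads in the Vector library against 451 in the library labelled OE-UNC5B (log2 fold change 0.15, interval -0.06 to 0.36). MYCL had 160 and 105 reads, 1.79-fold lower (-0.84, interval -1.21 to -0.48), and MYCN 1 and 0 reads. MYC was 63.4% of the summed MYC, MYCN and MYCL level per length in the Vector library against 77.7% in the library labelled OE-UNC5B. MAX, the dimer partner of MYC, had 777 and 1002 reads (0.13). Among the proteins that compete with MYC for MAX, MXI1 had 375 and 1090 reads, 2.46-fold higher (log2 interval 1.13 to 1.48), MXD3 had 268 and 175 reads (-0.85), and MXD1, MXD4 and MNT had values of 0.10, 0.16 and 0.18. MGA had 794 and 1417 reads (0.60). Of 39 genes listed as MYC targets 38 were tested, and 27 of these had a lower value. The list median was -0.13, beside -0.007 for all tested genes. By 2-fold, 1 was higher and 0 were lower, where 5.15% and 4.79% of all tested genes were. The 1 gene was the cyclin gene CCND2, with 479 and 1174 reads (1.06, interval 0.90 to 1.21), and it was not past 2-fold after subtraction of the trend on GC content and length or with FPKM values and 1 added. NCL and NPM1, abundant nucleolar proteins, both had values of -0.20. LDHA had 10817 and 6672 reads (-0.93).

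**Figure D4:**
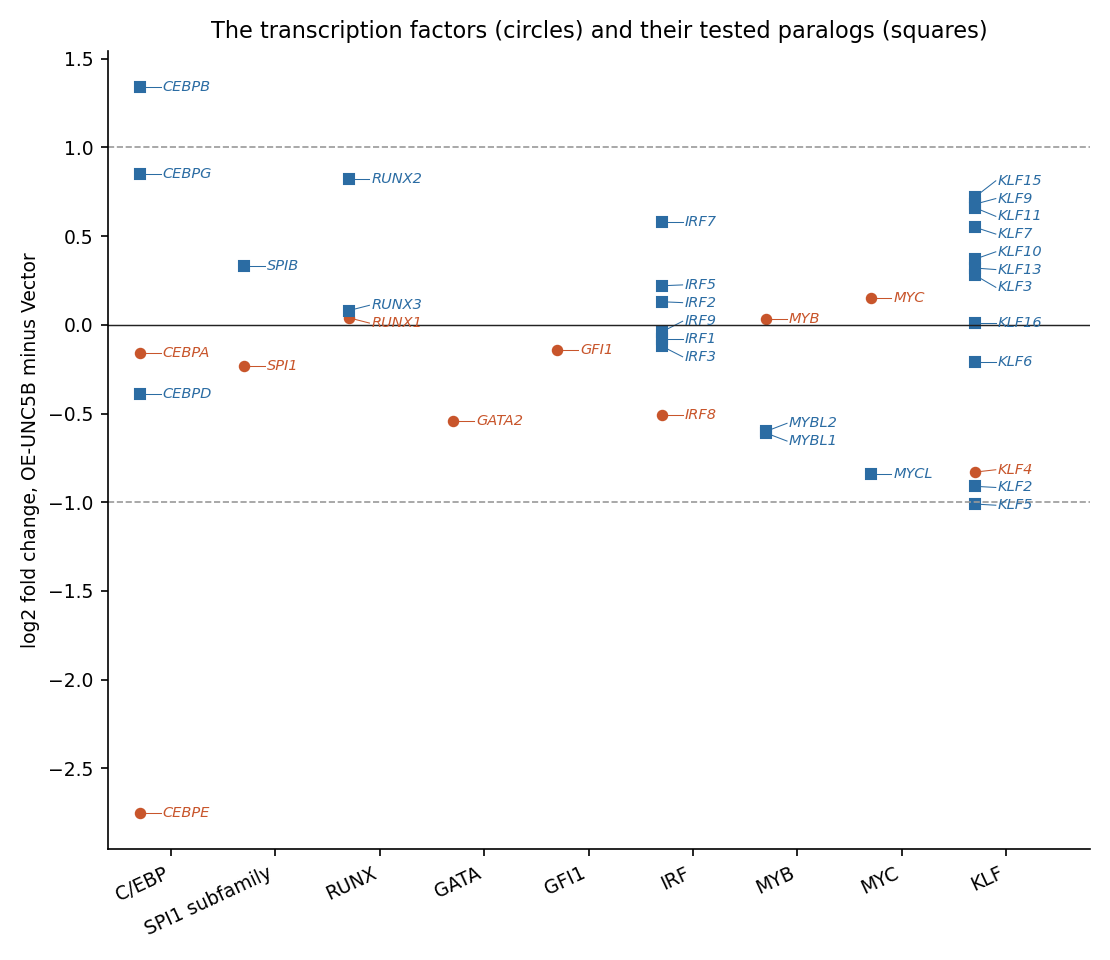
Log2 fold change in the library labelled OE-UNC5B against Vector for the 10 transcription factors (orange circles) and their tested paralogs (blue squares), by family, with dashed lines at 2-fold. The C/EBP family is spread widest, from CEBPE at -2.75 to CEBPB at 1.34, and RUNX2, MYBL2 and MYCL lie away from RUNX1, MYB and MYC.

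The granule and effector genes that follow these factors in maturation were compared as lists, which share some genes. Of 17 genes listed for CEBPA and CEBPE, 6 were tested, 0 were higher and 2 were lower by 2-fold, with a median of -0.37, where 4.79% of all tested genes were lower. The receptor genes IL6R and CSF3R (-0.07 and -0.04) and the granule gene BPI (0.02) differed little. PRG2, the eosinophil granule major basic protein and a gene known to need CEBPE, had 639 reads in the Vector library against 130 in the library labelled OE-UNC5B (-2.53, interval -2.82 to -2.26). MPO, the myeloperoxidase of primary granules, had 3363 and 1553 reads (-1.35, interval -1.44 to -1.26), and ELANE, neutrophil elastase, had 12355 and 9149 reads (-0.67). The secondary granule genes LTF, LCN2, MMP8 and CRISP3 had 0 reads in both libraries, CAMP had 1 and 2, and the depth does not allow a comparison. Of 14 monocyte genes 8 were tested, 0 were higher and 3 were lower by 2-fold, with a median of -0.39. LYZ, lysozyme, had 51742 and 23700 reads (-1.36, interval -1.39 to -1.34) and MNDA, a nuclear protein of myeloid cells, 541 and 213 reads (-1.58). S100A9 had 21 and 2 reads (-3.34, interval -6.77 to -1.60). CSF1R, the M-CSF receptor, had 334 and 443 reads (0.17).

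Among 41 paralogs of the 10 factors, 26 were tested, 1 was higher and 1 lower by 2-fold, and the median was 0.17. Here and in the next lists the counts are near the 5.15% and 4.79% of all tested genes. Among 28 partners and cofactors, 25 were tested, 2 were higher and 0 lower, with a median of 0.17. These 2 were LMO2 and MXI1. Among 39 other blood transcription factors, a list that also holds GATA2, 33 were tested, 1 was higher and 1 lower, with a median of 0.12. MEF2C, a factor of monocyte and lymphoid progenitors that is known as a target of KMT2A fusions, had 1946 and 5714 reads (1.32, interval 1.24 to 1.39), and EGR2 was the lower gene. HOXA9 had 800 and 1303 reads (0.47), and ZEB2 2624 and 4059 reads (0.39). ERG and MECOM had 0 reads in both libraries.

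**Figure D5:**
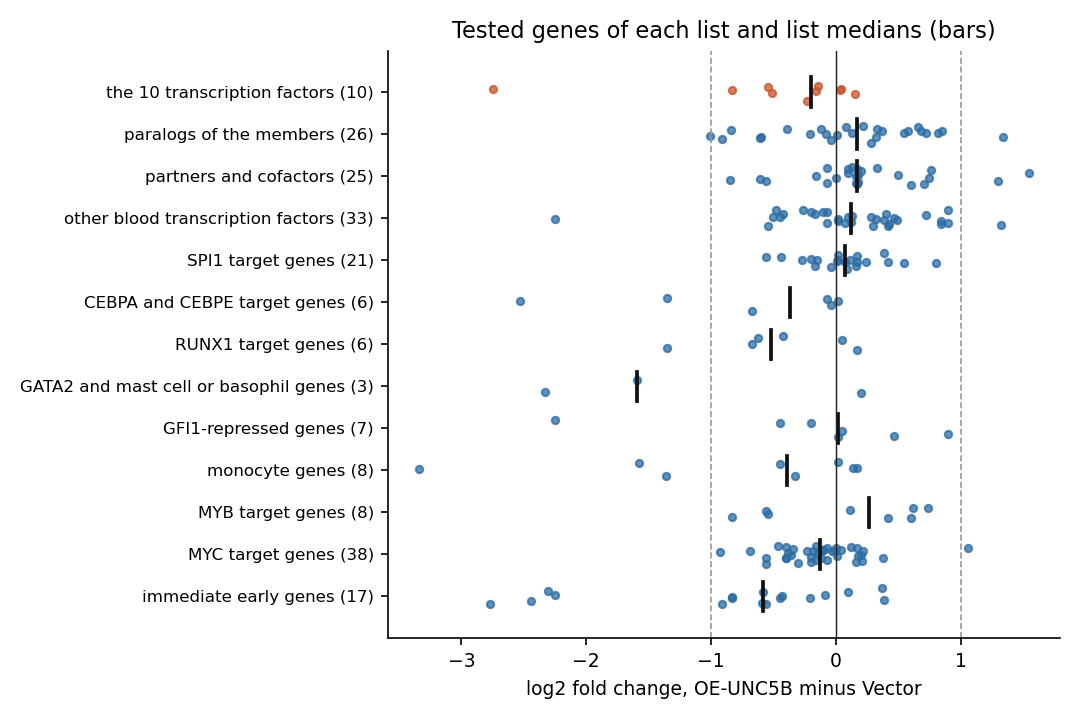
Log2 fold change in the library labelled OE-UNC5B against Vector of the tested genes of each list, with the number tested in brackets, black bars at the list medians and dashed lines at 2-fold. The immediate early genes have a median of -0.58, the 10 transcription factors one of -0.20, and the SPI1 targets cluster around 0.07.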

How the data were processed

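The libraries, from MOLM-13 per the labels, were made per the methods with the VAHTS Universal V6 kit and read on an Illumina HiSeq platform. The submitters' processing notes name bcl2fastq 2.19, HISAT2 2.0.4 and StringTie 1.3.0 and the build GRCh38. The annotation release and the use of strand are not given in the sources used here. In 1 table, the authors deposited counts (raw reads for each gene) beside FPKM. The FPKM as deposited were divided by the sum of counted reads and by a length that was computed back here from both columns.

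Counts were scaled with TMM factors over all genes (edgeR 4.0.16, R 4.3.3). The log2 fold change used 0.5 added reads, and intervals were 95% Clopper-Pearson intervals of the reads (scipy 1.17.1). With 1 library per group edgeR's quasi-likelihood test could not be fitted, and no p-value is given. Tested genes had 10 or more reads in the libraries combined. GENCODE 44, which has 49659 of the table's 50868 identifiers, gave lengths, biotypes and GC content. The fold and interval calculation was tested on simulated counts.

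The 10 factors, the 12 other lists and the 7 marker lists were chosen with earlier results of these data known. Named genes were the 10 factors, their nearest paralogs, UNC5B and, of each list, up to 6 genes past 2-fold with at least 50 reads. Other list members, flanking genes and the markers were named after their values were seen. Alternatives were library totals, upper quartile and DESeq2 1.42.0 size factors, 2 reads added, no filter, at least 50 reads, FPKM (0.1 or 1 added, genes reaching 1 in a library), protein-coding genes, and a quadratic trend on GC content and length subtracted. A planned comparison of protein sequences was not made, and some members of the lists are not reported here.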

Additional observations from a re-analysis of the deposited data

How the results depend on the processing

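No paired analysis was possible because each group is a single library, and no library could be left out for the same reason. Of 150 values for the 10 factors under the alternatives, 135 stayed within the counting interval or within 1.5 times of a count, 15 moved and 0 reversed a 2-fold change. After subtraction of the trend on GC content and length, the log2 fold change was 0.01 for SPI1, 0.02 for CEBPA, -0.09 for RUNX1 and -0.03 for MYB. With library totals it was -0.11 for CEBPA and 0.08 for MYB. With FPKM values it was -0.11 for CEBPA (0.1 or 1 added), 0.08 and 0.07 for MYB, and -1.29 for CEBPE with 1 added. With FPKM values 1 factor was lower by 1.5-fold in place of 2, because KLF4 is under the minimum FPKM in both libraries. The intervals of 2 factors lay above no change with library totals and of 1 with DESeq2 size factors, in place of 0. The median of the GATA2, mast cell and basophil list reached 0.25, in place of -1.59, that of the monocyte list lay between -0.80 and -0.16 and that of the RUNX1 targets reached -0.24, in place of -0.52. With no filter the median of the paralogs turned from 0.17 to -0.21 and that of the MYB targets from 0.27 to -0.06, and that of the CEBPA and CEBPE targets was -0.24 (-0.26 after the trend was subtracted), in place of -0.37. The GFI1-repressed genes had 0.18 after that subtraction, in place of 0.02. Of 240 list counts 22 moved by over 1.5 times or to or from 0. EGR2, FOSB and KLF5, like KLF4, are under the minimum FPKM in both libraries and so left the counts with FPKM values. Apart from fewer genes under a higher minimum, the cause was not tested. Over all genes, no filter gave 2886 higher and 3079 lower genes in place of 792 and 737, and FPKM values with 1 added gave 165 and 130. Other counts ranged between these: at least 50 reads gave 359 and 297, FPKM with 0.1 added 392 and 281, and protein-coding genes gave 469 higher genes. Depth limits CEBPE, whose value rests on 8 reads in 1 library.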

Other observations

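Eosinophil genes were looked at after PRG2 had been seen, so the list is no independent evidence. Of 11 genes, 5 were tested, with a median log2 fold change of -0.31. Of these 0 were higher and 1, PRG2 itself, was lower by 2-fold, where 5.15% and 4.79% of all tested genes were. PRG2 had 639 reads in the Vector library against 130 in the library labelled OE-UNC5B. The granule ribonuclease genes RNASE2 and RNASE3 differed less, with 2863 and 2729 reads (-0.31, interval from the reads -0.38 to -0.23) and 181 and 158 reads (-0.43, interval -0.75 to -0.12). PRG3, a relative of PRG2, had 3 and 0 reads. CLC, IL5RA and SIGLEC8, markers of mature eosinophils, had 0 reads in both libraries. The IL-3 receptor gene IL3RA had 538 and 839 reads (0.40, interval 0.25 to 0.56), and CSF2RB, its signalling partner, had 206 and 223 reads (-0.12).

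The gene next to CEBPA on chromosome 19 that starts 293 bp away on the opposite strand, CEBPA-DT, had 69 and 65 reads (-0.32), and AC008738.5, which overlaps CEBPA on the opposite strand, had 12 reads in both libraries. PVT1, downstream of MYC, had 621 and 662 reads (-0.14). MADD, 24829 bp from SPI1, and RPAP2, 72706 bp from GFI1, both had a value of 0.46, and EVI5, 21820 bp from GFI1 on its other side, had 0.12.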
